A study of Mus musculus with 12 samples.

Results

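The genes described here are 35 mouse genes of the p53 response, of CDK inhibition and of apoptosis, out of the 24054 genes in each deposited table. Their rows were taken by gene symbol from a list of named genes. By role they fall into p53 and its MDM regulators (3 genes), CDK inhibitors (5), p53 targets of cell cycle arrest and stress (7), p53 targets of repair and nucleotide supply (4), p53-induced death receptors and death effectors (7), BCL2 family genes that promote death (4), BCL2 family genes that promote survival (3) and the apoptosome (2).

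The study sequenced RNA of 2 blood progenitor populations sorted from mouse fetal liver at E13.5, from Setdb1 mutants and controls. SETDB1 is a methyltransferase that places a silencing mark on lysine 9 of histone H3. Both populations were LSK cells, that is, negative for lineage markers and positive for Sca-1 and Kit. The long-term haematopoietic stem cells (LT-HSC) were CD150+CD48-, and the multipotent progenitors (MPP) were CD150-CD48+. Each of the 4 groups has 3 libraries. Mutants in both populations carried Setdb1 p/p;vav-cre. The genotype of LT-HSC control 1 and of MPP controls 1 and 2 was Setdb1 +/p;+/+, and that of LT-HSC controls 2 and 3 and MPP control 3 was Setdb1 +/p;vav-cre. Every group therefore carries at least 1 p allele, which the labels do not define, and vav-cre is a Cre transgene active in blood cells. About 500 to 1000 LT-HSC and 20000 MPP were sorted for a library, so that cell number and cell type cannot be told apart in a comparison between the populations. No label ties the libraries of a group to separate fetuses, and p-values then measure only the spread between these libraries, which may be technical.

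The libraries held 10119416 to 14113198 expected counts each. Setdb1 RNA, summed over the whole gene, lay at 73.4 to 107.9 CPM (counts scaled to the size of the library) in the controls of LT-HSC and at 66.3 to 80.1 in the mutants, and the MPP libraries gave 87.9 to 141.3 and 86.6 to 116.5 in that order. It was not called in either population (adjusted p = 0.651 and 0.598, edgeR), and a sum over the gene does not check an allele that removes part of it. Among the markers of the sort, Slamf1 (CD150) lay at 34.7 to 38.4 CPM in LT-HSC controls and 1.32 to 2.41 in MPP controls, and Cd48 at 10.9 to 17.0 and 204.4 to 260.9. LT-HSC mutant 2 stood apart from LT-HSC mutants 1 and 3 in several genes described here.

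The p53 protein is a transcription factor that is kept low by MDM2 and MDM4 and is stabilised by DNA damage and other stress. It then raises the RNA of CDK inhibitors, repair enzymes and death genes, so that the levels of its targets are commonly used as a readout of its activity. In blood stem cells the same pathway is known to restrain division and to remove damaged cells, while proteins of the BCL2 family set the threshold at which the outer mitochondrial membrane opens and the apoptosome activates caspases.

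Per transcript length, the RNAs of p53 itself, of the pore-forming death protein BAX and of the stress sensor sestrin 1 were the 3 highest of the 35 in all 4 groups. In TPM, transcript counts corrected for gene length and scaled to the library, Trp53 averaged 362.0 ± 17.0 in LT-HSC controls, 360.0 ± 29.3 in LT-HSC mutants, 330.7 ± 25.4 in MPP controls and 294.5 ± 14.3 in MPP mutants (SD, n = 3 each). Bax followed with 286.8 ± 17.5, 266.4 ± 9.20, 225.1 ± 22.7 and 265.1 ± 8.16 TPM in the same order. The means of Sesn1 were 283.0, 239.7, 145.3 and 155.0 TPM. At the other end, Cdkn2a, which encodes the INK4 inhibitor p16 and the MDM2 inhibitor ARF, had 0 counts in all 12 libraries. The depth allows up to 0.213 to 0.296 CPM per library for such a gene, taking 3 counts as the limit of a count of 0, which covers counting error only. Its neighbour Cdkn2b, which encodes p15, had 0 counts in LT-HSC controls, 4 in LT-HSC mutants, 2 in MPP controls and 1 in MPP mutants, each over 3 libraries. Neither entered a test. Eda2r (a receptor of the tumour necrosis factor family) passed the filter on low counts between LT-HSC mutants and controls and over all 12 libraries, but not in the other comparisons. Fas (the death receptor CD95) failed it only between MPP mutants and controls. In these bulk libraries fewer cells of a type and less RNA per cell cannot be told apart.

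Trp53 did not differ detectably between mutants and controls in either population. In LT-HSC it read 335.1, 320.4 and 325.3 CPM in controls 1 to 3 and 354.6, 343.1 and 309.1 in mutants 1 to 3. In MPP the controls read 368.1, 309.9 and 326.1 CPM and the mutants 322.8, 315.1 and 334.5. In CPM the groups overlapped in both populations, and the log2 fold changes were 0.08 (SE 0.0904) in LT-HSC and -0.06 (SE 0.0887) in MPP, with adjusted p of 0.833 and 0.619 (edgeR's quasi-likelihood test). The MPP groups were apart in TPM, at 310.1 to 359.0 in controls and 278.3 to 305.2 in mutants. TPM was not tested between groups.

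Mdm2, the ubiquitin ligase that degrades p53 and is itself a p53 target, lay at 109.3, 112.6 and 93.6 CPM in LT-HSC controls against 126.1, 97.0 and 99.1 in LT-HSC mutants. In MPP it lay at 77.0, 91.0 and 91.5 CPM in controls and 95.3, 87.3 and 89.9 in mutants. Mutant and control values were interleaved, with log2 fold changes of 0.07 (SE 0.132) and 0.06 (SE 0.0968) and adjusted p of 0.914 and 0.681 (edgeR). Mdm4, its partner that blocks the transactivating part of p53, had a log2 fold change of 0.34 (SE 0.170, adjusted p = 0.584) in LT-HSC and 0.38 (SE 0.144, adjusted p = 0.061) in MPP and was not called in either.

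Cdkn1a encodes p21, the CDK inhibitor through which p53 arrests the cell cycle. In MPP it read 8.55, 11.6 and 8.6 CPM in controls and 10.4, 7.41 and 9.10 in mutants, which overlap (log2 fold change -0.10, SE 0.195, adjusted p = 0.706, edgeR). In LT-HSC the controls read 6.44, 8.47 and 12.2 CPM. LT-HSC mutants 1 and 3 were near the lowest control at 6.74 and 5.70 CPM, while mutant 2 was above every control at 18.4. The log2 fold change was 0.24 (SE 0.489, adjusted p = 0.923) with all libraries and -0.53 (SE 0.333, adjusted p = 0.651) without mutant 2, so the sign rested on that library. The other tested CDK inhibitors, Cdkn1b (p27) and Cdkn2c (p18), had log2 fold changes of -0.04 and 0.00 in LT-HSC and -0.04 and -0.49 in MPP, none of them called.

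**Figure D1:**
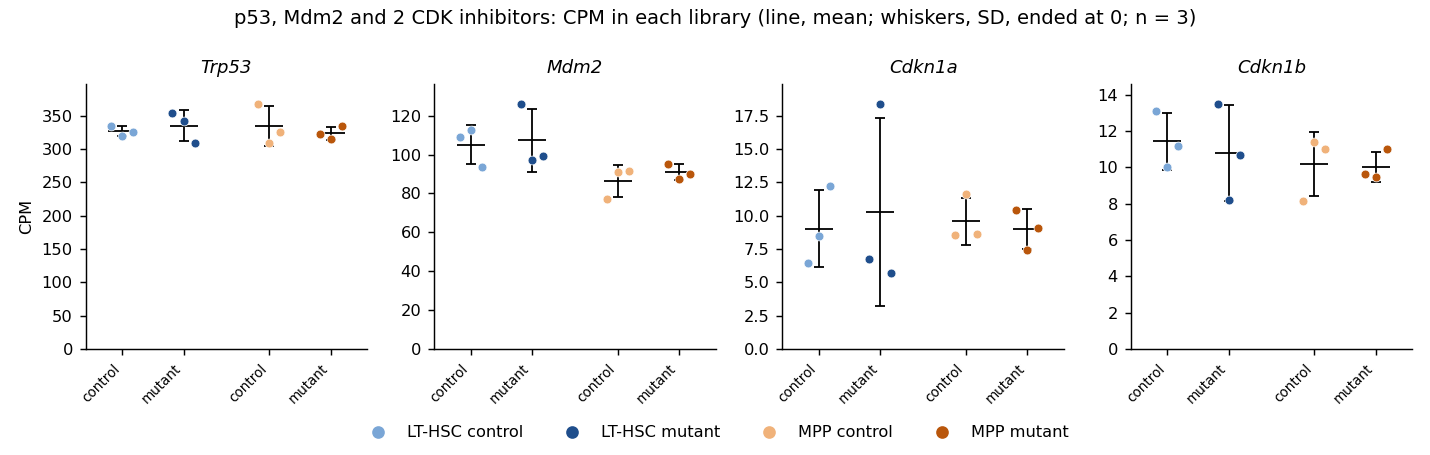
CPM of Trp53, Mdm2, Cdkn1a and Cdkn1b in the 12 libraries, with 1 point per library in order of its number, a line at the group mean and whiskers of 1 SD (n = 3); the vertical axes start at 0 and differ between genes. Controls and mutants overlap in every panel, and the point at 18.4 CPM in the Cdkn1a panel is LT-HSC mutant 2.

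The DNA upstream of the members was searched for the p53 decamer, the 10-base consensus of which p53 binds pairs, because many members are known as targets of p53. The search covered the 250 bases before each start site in RefSeq's promoter table (GRCm38.p6). The consensus is its own reverse complement, so that a search of 1 strand covers both. Of the 35 members, 27 were in the table, with 39 start sites. The decamer occurred in 9 of these 39 windows (23.1%), each from a different gene, against 7.13% of all 32851 windows of the table. The 9 genes were Trp53, Mdm2, Cdkn1a, Ccng1, Sesn1, Gadd45a, Bax, Aen and Polk. Cdkn1a was the only member with a pair of decamers no more than 13 bases apart, an arrangement found in 0.0639% of all windows. A match is a description of these letters and not a measured site. The stretches around the decamers of Cdkn1a, Mdm2, Ccng1, Gadd45a and Bax are given 5′ to 3′ on the strand of the gene, as examples from an MDM regulator, a CDK inhibitor, arrest and stress targets and a death gene, and the capitals mark the decamers.
Cdkn1a, chr17:29090886-29090957, plus strand: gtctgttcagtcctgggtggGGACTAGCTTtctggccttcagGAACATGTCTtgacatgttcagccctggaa
Mdm2, chr10:117710915-117710964, minus strand: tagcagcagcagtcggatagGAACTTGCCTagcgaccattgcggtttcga
Ccng1, chr11:40755442-40755491, minus strand: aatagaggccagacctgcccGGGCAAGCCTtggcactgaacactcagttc
Gadd45a, chr6:67037418-67037467, minus strand: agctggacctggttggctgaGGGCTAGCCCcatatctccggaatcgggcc
Bax, chr7:45467070-45467119, minus strand: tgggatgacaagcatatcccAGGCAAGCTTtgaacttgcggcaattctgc
The decamers of Cdkn1a begin 73 and 51 bases before its upstream start site, and the window of its other start site held none. Sesn1, Aen and Polk likewise had another window without a decamer. The decamer of Gadd45a begins 40 bases before the start site, that of Ccng1 185, that of Mdm2 186 and that of Bax 201. No decamer was found in the windows of Btg2, Phlda3, Bcl2 and Bcl2l11, which changed in MPP as given further on. A window without these letters leaves binding elsewhere unmeasured.

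In MPP, 11 of the 31 members tested were called between mutants and controls at an adjusted p under 0.05, 4 higher and 7 lower in mutants. Over all 12392 genes tested in MPP 35.0% were called (16.5% higher and 18.5% lower), so the share among the members was near that of all genes. At an unadjusted p under 0.05 stood 12 members, against 45.4% of all genes. The median log2 fold change of the members was -0.08, and that of all genes -0.01. The p53 targets went in both directions: Perp, Gadd45a and Bax were higher, and Trp53inp1, Phlda3, Btg2, Ddb2, Xpc and Pmaip1 were lower. The changes that passed at least 2-fold were those of Pmaip1, Trp53inp1 and Perp.

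Among the 31 members tested in MPP the largest fall was that of Pmaip1, which encodes NOXA, a BH3-only protein that neutralises MCL1. It read 14.5, 16.3 and 12.3 CPM in MPP controls and 4.21, 4.70 and 3.88 in MPP mutants. Every mutant lay below every control by a wide gap, and the level was 3.4-fold lower (log2 fold change -1.77, SE 0.182, adjusted p = 4.14e-05, edgeR). In LT-HSC the same gene was at 3.58, 2.65 and 7.14 CPM in controls, at 0.246 and 1.24 in mutants 1 and 3, and at 12.7 in mutant 2. Mutant 2 was thus the highest LT-HSC library and the other mutants the lowest. The log2 fold change there was 0.14 (SE 1.10, adjusted p = 0.982), and -2.53 (SE 0.777, adjusted p = 0.28) without mutant 2.

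Bcl2l11 moved the other way. It encodes BIM, a BH3-only protein that binds all pro-survival members of the family and is needed for the death of many blood cells. MPP controls had 18.9, 20.9 and 21.7 CPM and MPP mutants 37.8, 31.1 and 35.7. The groups did not overlap, and mutants were 1.69-fold higher (log2 fold change 0.75, SE 0.127, adjusted p = 0.00102, edgeR). LT-HSC mutants had 9.45, 26.8 and 11.9 CPM against 16.7, 12.8 and 14.7 in LT-HSC controls. Mutant 2 was again the highest, the others below every control, and no call was made (log2 fold change 0.17, SE 0.393, adjusted p = 0.928; -0.45 without mutant 2).

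Bax on chromosome 7 (45461695 to 45466903, GRCm38) encodes the protein that such BH3-only proteins release to open the mitochondrial membrane. It rose modestly in MPP mutants, to 118.3, 133.2 and 131.2 CPM from 88.7, 103.0 and 106.3 in controls. No mutant reached down to the controls (log2 fold change 0.35, SE 0.0953, adjusted p = 0.016, edgeR), but without MPP mutant 2 or 3 the call was lost. In LT-HSC Bax showed overlapping groups, 105.1, 123.1 and 111.9 CPM in controls and 104.0, 117.3 and 104.9 in mutants (log2 fold change -0.02, SE 0.114, adjusted p = 0.976). Bbc3, which encodes the BH3-only protein PUMA, was not called in MPP (log2 fold change -0.22, SE 0.205, adjusted p = 0.432) or in LT-HSC (-0.30, SE 0.293, adjusted p = 0.805).

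Of the 3 pro-survival members only Bcl2 passed the test in MPP. Bcl2 (chromosome 1, 106538176 to 106714290) fell from 31.0, 35.5 and 34.3 CPM in MPP controls to 26.7, 19.8 and 20.7 in MPP mutants. All mutants were below all controls, with a log2 fold change of -0.60 (SE 0.142, adjusted p = 0.00741, edgeR). Mcl1, the partner of NOXA, and Bcl2l1 (BCL-XL) had log2 fold changes of 0.06 (SE 0.160) and -0.10 (SE 0.0911) in MPP. In LT-HSC the 3 genes gave -0.24 (Bcl2), 0.01 (Mcl1) and 0.34 (Bcl2l1), with adjusted p of 0.638 or more. LT-HSC mutant 2 had the lowest Bcl2 value, 15.3 CPM against 30.6 and 27.3 in mutants 1 and 3, and without it the log2 fold change was -0.016. The apoptosome genes Apaf1 and Casp9, whose products assemble with cytochrome c to start the caspase cascade, were within -0.13 and 0.16 in MPP and within 0.02 and 0.05 in LT-HSC on the log2 scale, and were not called.

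**Figure D2:**
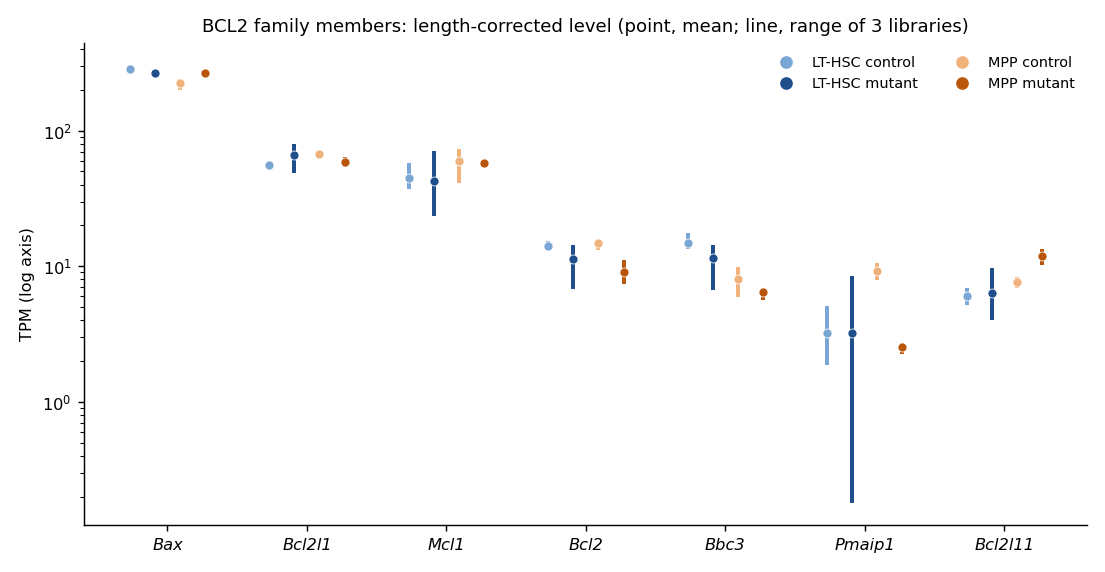
Length-corrected level (TPM, log axis) of the 7 members of the BCL2 family in the 4 groups; points are means of 3 libraries and lines their range. Bax is highest in every group, and the line of Pmaip1 in LT-HSC mutants spans 0.18 to 8.54 TPM.

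On this length-corrected scale, Pmaip1 averaged 9.23 ± 1.34 TPM and Bcl2l11 7.69 ± 0.731 TPM in MPP controls (SD, n = 3 each). In MPP mutants Pmaip1 averaged 2.52 ± 0.229 TPM and Bcl2l11 11.9 ± 1.59 TPM. Bbc3, also a BH3-only member, averaged 8.1 ± 2.03 TPM in MPP controls and 6.46 ± 0.715 TPM in MPP mutants. The ranges of these genes overlapped in MPP controls, which leaves their order there unresolved. In MPP mutants the ranges were apart, with Bcl2l11 highest and Pmaip1 lowest. Bcl2 stood at 14.8 ± 1.53 TPM in MPP controls and 9.13 ± 1.94 TPM in MPP mutants, while Bcl2l1 (66.8 ± 3.44 and 58.3 ± 5.48 TPM) and Mcl1 (59.9 ± 16.4 and 57.7 ± 3.02 TPM) were the more abundant pro-survival RNAs in both.

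Among the targets of arrest and stress, Btg2 and Gadd45a were called in MPP. Btg2 (chromosome 1, 134074865 to 134079155), an antiproliferative gene that promotes mRNA decay, fell from 59.3, 49.6 and 47.7 CPM in MPP controls to 29.7, 32.0 and 35.1 in MPP mutants. The groups were well apart (log2 fold change -0.71, SE 0.121, adjusted p = 0.00111, edgeR). Its LT-HSC values, 48.4, 61.3 and 47.4 CPM in controls and 58.5, 35.1 and 44.7 in mutants, overlapped (log2 fold change -0.15, SE 0.201, adjusted p = 0.864; -0.014 without LT-HSC mutant 2). Gadd45a (chromosome 6, 67035096 to 67037407), a damage-induced gene that acts on repair and on stress kinases, had 7.70, 8.82 and 10.7 CPM in MPP controls and 10.4, 14.1 and 15.2 in MPP mutants. The lowest mutant lay under the highest control, and the call was narrow (log2 fold change 0.53, SE 0.190, adjusted p = 0.0492, edgeR) and was lost without MPP control 1 or 2 or MPP mutant 2 or 3. In LT-HSC it gave a log2 fold change of -0.30 (SE 0.277, adjusted p = 0.796), which ranged from -0.63 (without mutant 3) to -0.16 (without mutant 1) with 1 library left out. A noncoding gene on the opposite strand, E230016M11Rik, shares 19.1% of the exonic bases of Gadd45a in the GENCODE annotation, and this library kit does not keep the strand.

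Ccng1, cyclin G1, is a p53 target that recruits a phosphatase to MDM2. In MPP it read 97.2, 100.9 and 81.4 CPM in controls and 108.9, 111.3 and 105.4 in mutants, with no overlap, but it was not called (log2 fold change 0.21, SE 0.0985, adjusted p = 0.128, edgeR). In LT-HSC it read 122.1, 120.0 and 114.7 CPM in controls and 92.3, 92.8 and 92.4 in mutants. There, too, the groups did not overlap, in the opposite direction (log2 fold change -0.32, SE 0.0925, adjusted p = 0.325). The remaining arrest and stress members, Sesn1 and Sesn2 (inhibitors of mTORC1 signalling), Zmat3 (an RNA-binding protein) and Plk2 (a stress-induced kinase), lay between -0.38 and 0.28 on the log2 scale in MPP and none was called. Sesn2 and Zmat3 were lower in every MPP mutant than in every MPP control, at 12.7 to 13.7 CPM against 14.5 to 16.8 for Sesn2. In all, 13 of the 31 members had MPP groups without overlap, 4 higher and 9 lower in mutants, where 50.5% of all tested genes did (25.4% higher and 25.0% lower).

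Both called repair genes fell in MPP mutants. Xpc (chromosome 6, 91489305 to 91515888) encodes the protein that recognises bulky lesions in nucleotide excision repair. It went from 156.9, 155.2 and 152.3 CPM in MPP controls to 125.5, 100.3 and 100.9 in MPP mutants. The controls were tightly grouped and all above the mutants (log2 fold change -0.52, SE 0.103, adjusted p = 0.00266, edgeR). In LT-HSC Xpc showed a difference of similar size, with 117.4, 111.0 and 112.4 CPM in controls and 87.9, 84.9 and 73.8 in mutants. These groups did not overlap either, yet the gene was not called there (log2 fold change -0.43, SE 0.105, adjusted p = 0.222). DESeq2 on the same libraries (adjusted p = 0.0385) and a joint edgeR fit of all 12 libraries (adjusted p = 0.0375) did call it. Over all genes in LT-HSC, DESeq2 called 260 and the joint fit 250, where the main test called 54.

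Ddb2 (chromosome 2, 91211545 to 91237132), which passes ultraviolet lesions on to XPC, read 24.6, 22.2 and 22.7 CPM in MPP controls and 17.8, 17.6 and 18.7 in MPP mutants. The groups were apart, but the call (log2 fold change -0.38, SE 0.124, adjusted p = 0.0355, edgeR) was lost whichever of the 6 MPP libraries was left out. Acp2, a lysosomal phosphatase gene on the opposite strand, shares 23.8% of the exonic bases of Ddb2, and it fell too (log2 fold change -0.69, adjusted p = 0.00355). The reads of the 2 genes cannot be told apart where they share bases. In LT-HSC the log2 fold change of Ddb2 was -0.38 (SE 0.192, adjusted p = 0.589), and -0.62 without mutant 1. Rrm2b, the p53-induced subunit of ribonucleotide reductase, and Polk, a lesion-bypass polymerase, were not called in either population.

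Of the p53-induced death genes, Perp rose and Trp53inp1 and Phlda3 fell in MPP mutants. Perp (chromosome 10, 18845071 to 18857073) encodes a membrane protein of cell junctions that p53 induces in apoptosis. Its level was low in all libraries, at 1.48, 2.33 and 2.4 CPM in MPP controls against 6.23, 7.96 and 9.10 in MPP mutants. Each mutant was more than 2-fold above each control (3.72-fold higher on average, log2 fold change 1.89, SE 0.255, adjusted p = 0.000238, edgeR). In LT-HSC, with 0.332, 1.99 and 1.95 CPM in controls and 0.329, 0.386 and 1.61 in mutants, the groups overlapped and the log2 fold change was -0.79 (SE 0.855, adjusted p = 0.822), ranging from -1.93 (without mutant 3) to -0.43 (without mutant 1) with 1 library left out.

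Trp53inp1 (chromosome 4, 11156441 to 11174379), a nuclear cofactor of p53 that also acts in autophagy, fell from 24.9, 27 and 23 CPM in MPP controls to 15.9, 9.58 and 10.8 in MPP mutants. All mutants were below all controls, 2.08-fold on average (log2 fold change -1.06, SE 0.187, adjusted p = 0.00135, edgeR). LT-HSC had 49.5, 40.3 and 39.1 CPM in controls and 39.5, 23.9 and 27.8 in mutants, where mutant 1 reached the lowest controls (log2 fold change -0.46, SE 0.203, adjusted p = 0.538). Phlda3 (chromosome 1, 135766085 to 135769134), which restrains AKT at the membrane, had 4.12, 6.99 and 6.12 CPM in MPP controls and 4.03, 2.62 and 3.46 in MPP mutants. The gap between mutant 1 and control 1 was small (log2 fold change -0.78, SE 0.263, adjusted p = 0.0391, edgeR), and the call was lost without MPP control 2 or 3 or MPP mutant 2 or 3. In LT-HSC Phlda3 read 7.17, 6.33 and 7.14 CPM in controls and 3.86, 2.03 and 4.68 in mutants, without overlap and without a call (log2 fold change -0.92, SE 0.347, adjusted p = 0.465).

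Fas was too low in MPP to be tested, at 0.389, 0.998 and 0.744 CPM in controls and 0.366, 0.452 and 0.253 in mutants. In LT-HSC it read 0.863, 0.81 and 1.5 CPM in controls and 0.657, 0.386 and 0.365 in mutants, with no overlap and no call (log2 fold change -1.12, SE 0.565, adjusted p = 0.591). Tnfrsf10b, the mouse TRAIL receptor, and Aen, an apoptosis-enhancing nuclease, had log2 fold changes of -0.08 and -0.03 in MPP and -0.06 and 0.25 in LT-HSC and were not called.

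**Figure D3:**
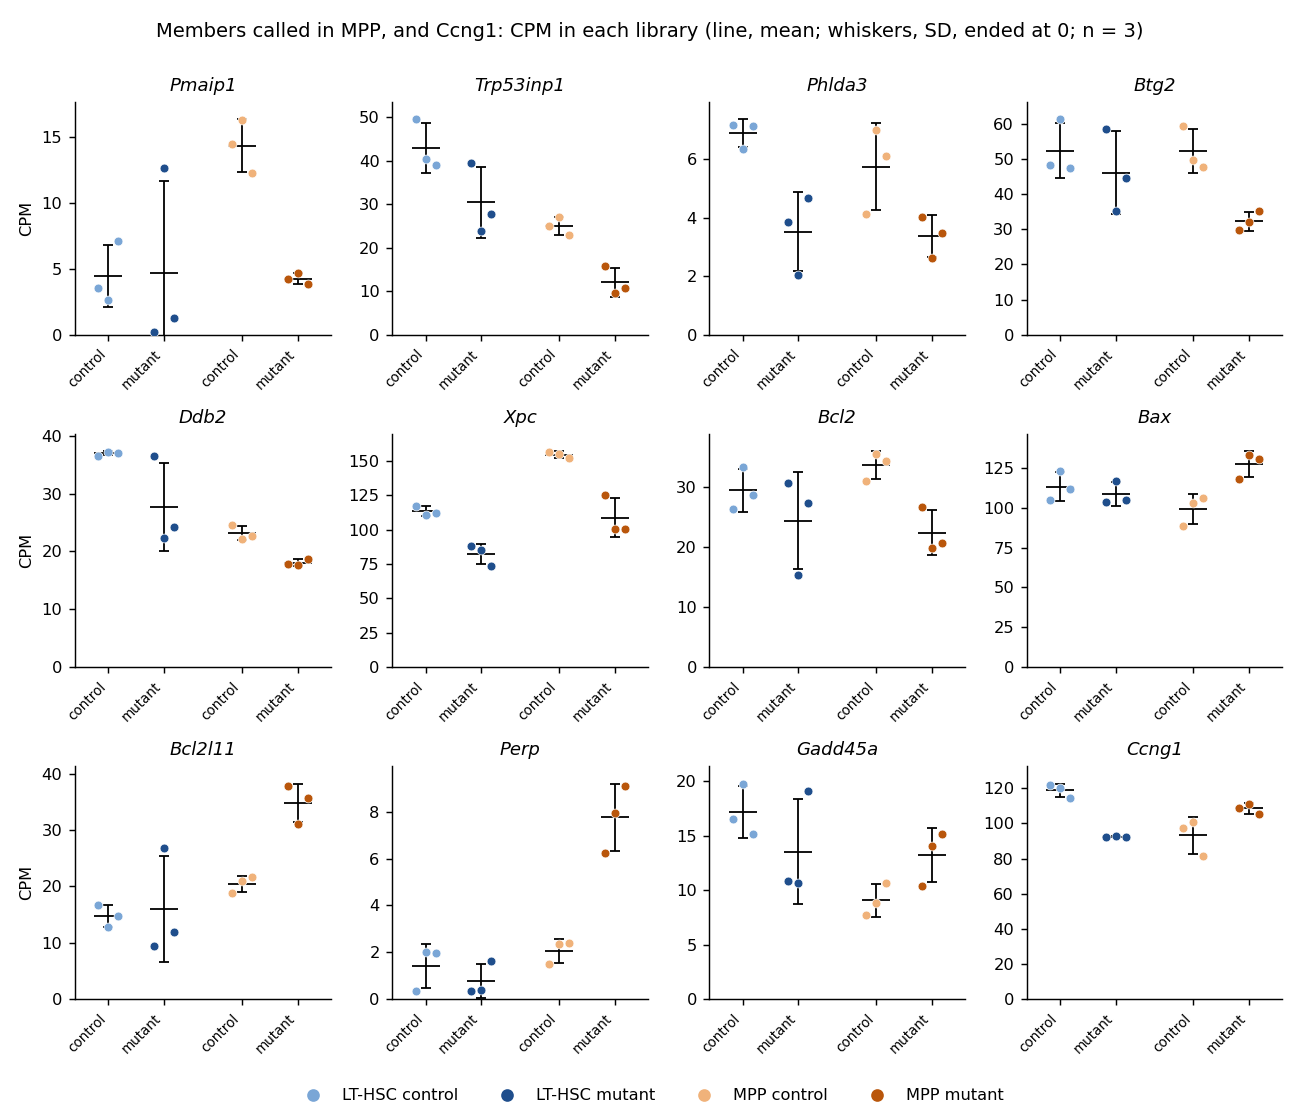
CPM of the 11 members called in MPP, and of Ccng1, in the 12 libraries (1 point per library in order of its number, line at the group mean, whiskers of 1 SD ended at 0, n = 3); the vertical axes start at 0 and differ between genes. The MPP groups are apart in every panel but that of Gadd45a, and the single high points of Pmaip1 (12.7 CPM) and Bcl2l11 (26.8 CPM) among LT-HSC mutants are mutant 2.

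In LT-HSC none of the 33 members tested was called by edgeR, where 0.42% of the 12847 genes tested were (0.257% higher and 0.163% lower). At an unadjusted p under 0.05 stood 3 members, Xpc, Ccng1 and Phlda3, against 9.5% of all genes. DESeq2 called 1 member, Xpc, and 260 of the 12847 genes tested. The log2 fold changes lay between -1.12 (Fas) and 0.34 (Mdm4 and Bcl2l1), with 20 negative and 13 positive, and their median was -0.06 against 0.03 for all genes. In 7 members every mutant was below every control: Ccng1, Phlda3, Sesn1, Sesn2, Fas, Ddb2 and Xpc. No member had every mutant above every control, and over all genes 9.76% were separated downwards and 6.55% upwards. The median SE of the members was 0.235 in LT-HSC and 0.142 in MPP on the log2 scale, so that smaller differences could be detected in MPP.

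**Figure D4:**
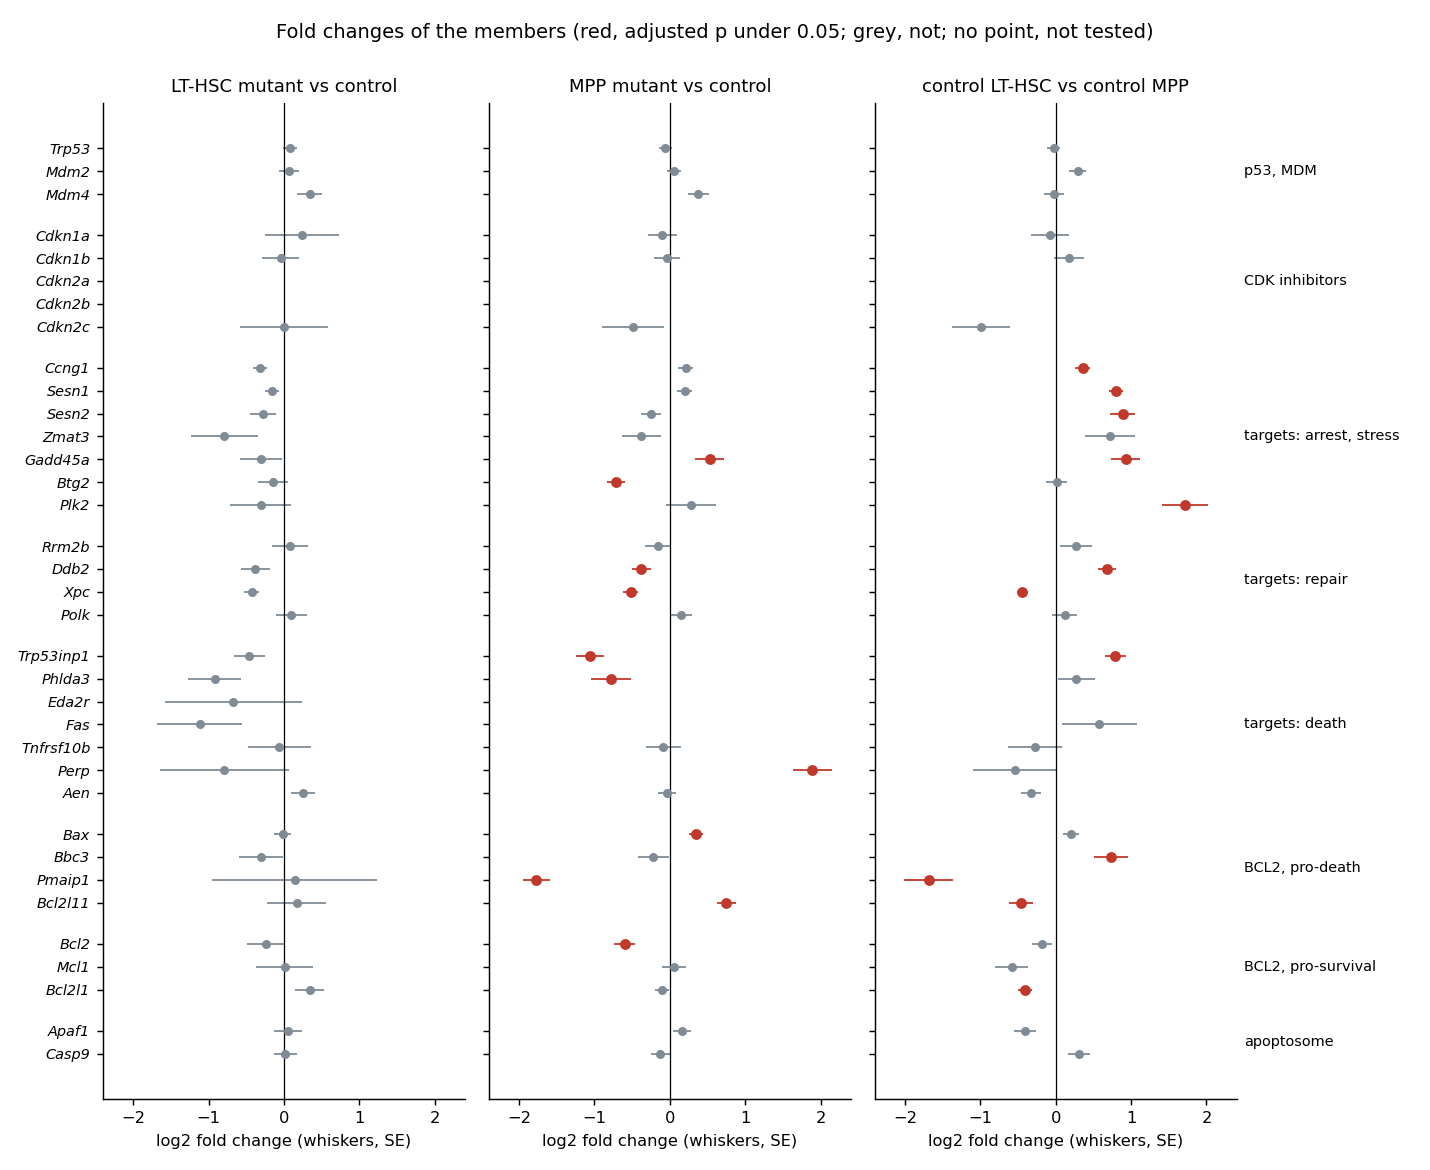
Log2 fold changes of the members with their SE as whiskers in LT-HSC mutants against controls, MPP mutants against controls and control LT-HSC against control MPP, grouped by role; red points are called at an adjusted p under 0.05 and rows without a point were not tested. No point is red in LT-HSC, 11 are in MPP, on both sides of 0, and 12 are between the control populations.

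The difference between the effects in LT-HSC and MPP was tested as an interaction over all 12 libraries. None of the 33 members tested was called by edgeR (0.377% of 13249 genes were, 0.226% with a positive and 0.151% with a negative interaction). An unadjusted p under 0.05 was reached by 5 members, against 12.4% of all genes. DESeq2 called 1 member, and 339 of the 13249 genes. That member was Ccng1, which is singled out here after its values were seen. Its interaction was -0.59 (SE 0.123) on the log2 scale, with an adjusted p of 0.0639 by edgeR and 0.00566 by DESeq2. The next smallest p-values were those of Perp (-2.73, SE 0.876, adjusted p = 0.212), Bax (-0.43, SE 0.140, adjusted p = 0.22) and Sesn1 (-0.42, SE 0.137, adjusted p = 0.22). Without LT-HSC mutant 3, 4 members were called, Ccng1 (adjusted p = 0.0223) and Perp (adjusted p = 0.0185) among them. In this model calls over all genes then went from 50 to 885.

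Control LT-HSC and control MPP were compared to see how the members differ between the populations in cells that are not p/p. All these controls were Setdb1 +/p. LT-HSC controls 2 and 3 carried vav-cre, but of the MPP controls only control 3 did, and the part of the transgene in this comparison was not tested. These controls are the same libraries as in the genotype comparisons, so the values stand side by side and not as independent support. Of 32 members tested, 12 were called, 8 higher and 4 lower in LT-HSC, a share near the 38.5% of all 12834 genes tested that were called. The median log2 difference of the members was 0.15, against 0.01 for all genes. At an unadjusted p under 0.05 stood 17 members (48.2% of all genes), and the groups did not overlap in 15 members, 9 higher and 6 lower in LT-HSC, against 26.3% and 24.8% of all genes. Markers of other cells differed too. Hepatoblast markers summed to 545.7 to 1871 CPM in LT-HSC controls and 278.2 to 598.9 in those of MPP, with 16 of 17 called higher. Lymphoid markers summed to 458.7 to 494.6 and 1013 to 1098 CPM, with 13 of 14 tested called lower.

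Of the arrest and stress targets, 5 of 7 were higher in LT-HSC controls, where 20.5% of all genes tested were called higher and 18% lower. Sesn1 read 404.6, 396.6 and 378.8 CPM in LT-HSC controls against 200.7, 228.3 and 253.4 in MPP controls, a clear gap (log2 difference 0.80, SE 0.0978, adjusted p = 0.000205, edgeR). Sesn2 had 25.3, 25.6 and 34.5 CPM against 15.2, 14.5 and 16.8 (0.89, SE 0.165, adjusted p = 0.00229). Plk2 showed the largest difference of the called members, 7.10, 7.51 and 5.79 CPM against 2.72, 1.33 and 2.15 (1.72, SE 0.305, adjusted p = 0.00184). None of these pairs of groups overlapped. Gadd45a, with the MPP values given above, had 16.5, 19.8 and 15.2 CPM in LT-HSC controls (0.93, SE 0.194, adjusted p = 0.00439). The difference for Ccng1 was smaller (0.36, SE 0.0986, adjusted p = 0.0158), and leaving out LT-HSC control 2 or MPP control 3 ended its call.

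The other members that were higher in LT-HSC controls were Trp53inp1 (log2 difference 0.79, SE 0.138, adjusted p = 0.00162), Ddb2 (0.68, SE 0.120, adjusted p = 0.00169) and Bbc3 (0.73, SE 0.224, adjusted p = 0.0265). Bbc3 averaged 15.1 ± 2.60 CPM in LT-HSC controls and 9.16 ± 2.23 in MPP controls (SD, n = 3 each) without overlap, and its call depended on LT-HSC control 3 and on MPP controls 1 and 2, since it was lost without any of them. Acp2, which overlaps Ddb2, was also higher in LT-HSC controls (0.61, adjusted p = 0.00923). The 4 members that were lower in LT-HSC controls were Pmaip1 (-1.68, SE 0.325, adjusted p = 0.00297), Xpc (-0.44, SE 0.0787, adjusted p = 0.002), Bcl2l1 (-0.41, SE 0.0927, adjusted p = 0.00642) and Bcl2l11 (-0.46, SE 0.158, adjusted p = 0.042). The call of Bcl2l11 held only when LT-HSC control 1 was the library left out. Bcl2l1 had 70.3, 75.6 and 72.1 CPM in LT-HSC controls against 103.9, 91.5 and 96.7 in MPP controls. Trp53 (log2 difference -0.02, SE 0.0876, adjusted p = 0.848) and Cdkn1a (-0.08, SE 0.258, adjusted p = 0.84) did not differ detectably between the populations.

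Set side by side, Pmaip1 lay at 2.65 to 7.14 CPM in LT-HSC controls, 12.3 to 16.3 in MPP controls, and 3.88 to 4.70 in the mutants of MPP. Trp53inp1 lay at 39.1 to 49.5 CPM in LT-HSC controls, 23 to 27 in MPP controls, and 9.58 to 15.9 in the mutants of MPP. For Pmaip1 the MPP mutants were thus within the range of LT-HSC controls, and for Trp53inp1 they were below both control groups.

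Markers of the sort and of other cells moved with the genotype in MPP. Ly6a (Sca-1) was at 26.3 to 35.3 CPM in controls and 13.7 to 16.9 in mutants (log2 fold change -1.07, adjusted p = 0.000339, edgeR), and Cd48 at 204.4 to 260.9 and 149.2 to 192.7 (-0.44, adjusted p = 0.0148), while Kit and Slamf1 were not called. The summed level of 18 lymphoid markers ranged over 1013 to 1098 CPM among controls and 431.3 to 593.9 among mutants. Of the 14 tested, 13 were called lower. For 16 macrophage markers the sums were 1653 to 2308 and 492.5 to 657.4 CPM. There 13 of 14 tested were called lower, and all 14 log2 fold changes were negative. Red cell markers summed to 1848 to 3015 CPM in controls and 5645 to 8811 in mutants. Of these 20, 18 were called higher and 19 had positive log2 fold changes. Proliferation genes summed to 6691 to 7087 and 7651 to 8719 CPM, with 11 of 20 called higher and 19 positive. The hepatoblast sums were 278.2 to 598.9 CPM in controls and 96.7 to 134.2 in mutants. Of the 15 tested, 8 were called lower and all 15 had negative log2 fold changes. Over all genes tested in MPP, 16.5% were called higher and 18.5% lower. In MPP the lymphoid marker Cd3e was at 0 in every library, and the macrophage marker Vsig4 was at 0 in every mutant. In LT-HSC mutants the macrophage sum was 2023 CPM in mutant 2, against 666.8 and 748.2 in mutants 1 and 3 and 1625 to 2129 in LT-HSC controls, and the hepatoblast sum was 66.7 to 484.9 CPM against 545.7 to 1871 in controls. LT-HSC mutant 3 had the highest red cell sum, 6586 CPM against 4029 and 3545 in mutants 1 and 2 and 3558 to 5694 in LT-HSC controls. Of the 20 red cell log2 fold changes in LT-HSC, 10 were positive and 10 negative, and 1 was called, higher. The part of these markers in the results for the members was not tested.

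The transgene differs between the groups as well. Only MPP control 3 of the MPP controls carries vav-cre, as all mutants do. In a joint fit with only the controls that carry it, in which that lone library is assumed to vary like the other groups, 0 members were called in MPP. The lowest adjusted p among the 11 members called with every control was 0.147 (edgeR), and the log2 fold change was -1.58 for Pmaip1, 1.64 for Perp, -0.98 for Trp53inp1 and -0.54 for Xpc. These values rest on libraries that also entered the comparison with every control, so their signs are no separate support. The same fit called 125 of all genes in MPP.

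Other genes of the same pathways were put in 5 lists by function, with earlier results of these data known, so the lists are no independent comparison. None had a member called between LT-HSC mutants and controls by edgeR. At an unadjusted p under 0.05 stood 0 of 20 DNA damage sensors and repair genes, 0 of 14 regulators and relatives of p53, 4 of 24 further p53 targets, 4 of 25 further BCL2 family genes, caspases and their inhibitors, and 1 of 21 relatives of the CDK inhibitors and their targets, where 9.5% of all genes did. DESeq2 called 1 of the further p53 targets and none of the others, where it called 260 of all 12847 genes tested. In MPP the calls were 3 of 20, 4 of 14, 11 of 24, 16 of 25 and 5 of 21 in the same order, to be read against the 35.0% of all genes.

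The 3 DNA damage genes called in MPP were all higher in mutants: Xrcc5 (Ku80, end joining; log2 fold change 0.43), Chek2 (a checkpoint kinase; 0.29) and Brca2 (homologous recombination; 0.27). Of the p53 regulators Hipk2 (a kinase that phosphorylates p53; 0.99), Usp7 (a deubiquitinase of MDM2 and p53; 0.76) and Rpl5 (a ribosomal protein that binds MDM2; 0.35) were higher, and Trp53bp2 (-0.38) was lower. Hipk2 averaged 31.6 ± 5.51 CPM in MPP controls and 63.3 ± 8.10 in MPP mutants (SD, n = 3 each). Further p53 targets were called higher in 2 and lower in 9 cases. Those with the smallest p were Pltp (a phospholipid transfer protein; -4.46), Abhd4 (a lipase; -1.03) and Ephx1 (an epoxide hydrolase; -2.01).

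The BCL2 family and caspase list had 8 members higher and 8 lower in MPP mutants. The smallest p-values were those of Bnip3 (mitophagy; log2 fold change 0.72), Birc3 (an inhibitor of apoptosis; -0.58) and Casp6 (an executioner caspase; -0.59). Of the relatives of the CDK inhibitors and their targets, 4 were higher and 1 lower. Rb1, which CDK inhibitors keep in its growth-suppressing form, averaged 12.2 ± 0.670 CPM in MPP controls and 28.2 ± 4.90 in MPP mutants (log2 fold change 1.20, SE 0.154, adjusted p = 0.000176, edgeR). E2f4 (0.85), a partner of the pocket proteins, and Rbl1 (p107; 0.32) were higher as well, and Skp2, which targets p27 for degradation, was lower (-0.27). In the interaction edgeR called none of the 20, 14, 24, 25 and 21 tested genes of these lists. An unadjusted p under 0.05 was reached by 1, 2, 4, 2 and 1 of them, against 12.4% of all genes. DESeq2 called 2 further p53 targets, and 339 of all 13249 genes tested.

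Between the control populations the lists are to be read against the 20.5% of all genes called higher and 18% called lower in LT-HSC. Of 20 DNA damage genes, 6 were lower in LT-HSC and none was higher, with Topbp1 (log2 difference -0.55), H2afx (-0.60) and Xrcc6 (-0.47) leading. Relatives of the CDK inhibitors and their targets were higher in 4 and lower in 6 cases of 21. Cdkn1c, which encodes the CDK inhibitor p57, averaged 52.3 ± 10.5 CPM in LT-HSC controls and 20.3 ± 7.32 in MPP controls (1.38, SE 0.245, adjusted p = 0.00186, edgeR), while Cdk6 (-1.65) and Ccnd1 (cyclin D1; -0.93) were lower in LT-HSC. Further BCL2 family genes and caspases were higher in 2 and lower in 5 cases of 25, led by Bid (-0.67), Bak1 (-1.61) and Cycs (cytochrome c; -0.69). Of the regulators of p53, 1 was higher and 3 lower in LT-HSC of 14, led by Rpl11 (-0.37), Rpl5 (-0.38) and Hipk2 (0.52), and of further p53 targets 7 were higher and 5 lower of 24, led by Ak1 (1.96), Abhd4 (0.98) and Ephx1 (2.0). The summed level of the 20 proliferation genes was 4983 to 5567 CPM in LT-HSC controls and 6691 to 7087 in MPP controls, and like that of the other markers its part in these differences was not tested.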

How the data were processed

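RNA was sequenced in 12 libraries, 3 in each of 4 groups. Per the labels' protocols, 10 ng of RNA went into each library, through a low-input kit that loses the strand. STAR, RSEM and mm10 are named in the submitters' processing notes; their versions were not given in the sources used here. Each sample has a deposited table with the authors' expected count for every gene, in which RSEM shares a read between the genes it fits (7.13% to 7.76% of values were fractional). The same deposited tables give TPM, which the authors' pipeline scaled by gene length, per the file headers. TPM was used only to compare levels between genes.

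Titles gave the groups and replicate numbers, and the genotype labels the alleles. After rounding of the expected counts to whole numbers, edgeR 4.0.16 (R 4.3.3) was run: TMM scaling, filterByExpr (minimum count 10, minimum total 15), quasi-likelihood test, Benjamini-Hochberg adjustment over all genes tested, threshold 0.05. Genotype was tested within the 6 libraries of each population, cell type within the 6 controls, and the interaction over all 12. CPM uses TMM-scaled library sizes. DESeq2 1.42.0, other scalings, no filter, a replicate block, joint fits and leaving out each library were alternatives. The procedure was tested on simulated data.

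The members and the lists of related and marker genes were chosen with earlier results of these data known. Every called member was named, as were Trp53, Cdkn1a, Mdm2, Bax and Ccng1 in both genotype comparisons, and up to 3 called genes of each related list with the smallest p. Trp53bp2 and Skp2 were named outside this rule, each the only called gene of its list that was lower in MPP mutants. The genes under the other observations were picked after their values were seen. Gene coordinates and promoter sequences come from RefSeq (GRCm38.p6), and exon overlaps from GENCODE. Same-numbered LT-HSC mutants and controls deviated together (r = 0.108, 0.147 and 0.175 across genes), while same-numbered MPP libraries did not (r = -0.0245, -0.212 and -0.177), nor did same-numbered controls of the 2 populations (r = 0.0598, -0.263 and 0.0683). Different-numbered LT-HSC libraries gave r of -0.202 to 0.0558, but different-numbered MPP libraries reached 0.21, so that r of this size does not establish pairing. The numbers were treated as a possible pairing of the LT-HSC libraries only, from the data and not from the labels. The main tests did not use it, and the replicate block did. No 2 libraries of a group agreed within sampling noise.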

Additional observations from a re-analysis of the deposited data

How the results depend on the processing

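In LT-HSC the count of members called was 0 with each library left out, with the replicate block, with both other scalings, without the filter and with vav-cre controls only, and 1 (Xpc) with DESeq2 and with the joint fit of 12 libraries. In MPP, where 11 were called, the count was 7 to 10 with 1 library left out (7 without MPP mutant 2), 5 in the joint fit, 0 with vav-cre controls only and 9 to 11 with the other settings. The 7 calls kept whichever library was left out were Pmaip1, Trp53inp1, Perp, Btg2, Xpc, Bcl2 and Bcl2l11. Of these, Pmaip1 (adjusted p = 0.162), Bcl2 (0.0887) and Bcl2l11 (0.0808) were not called in the joint fit. Phlda3, Gadd45a and Ddb2 were called neither there nor with DESeq2. In the control comparison (12 called) the count was 10 to 13 with 1 library left out, 8 in the joint fit and 12 to 14 with the other settings. Whichever library was left out, 9 of these calls were kept. Over all genes in this comparison, 4942 were called in the main fit and 4152 in the joint fit. The calls over all genes were 3410 to 4873 with 1 library left out and 4860 to 5086 with the other settings. The interaction count was 0 to 4 with 1 library left out and 1 with DESeq2. The cause of these shifts was not tested, except that the vav-cre setting leaves 1 MPP control.

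The replicate block, which pairs the LT-HSC libraries by number, left 0 members called there (48 of all genes against 54). It gave 10 members in MPP and 13 in the control comparison, where the numbers were not taken to pair the libraries. Phlda3 (adjusted p = 0.0853, edgeR) and Ddb2 (0.0708) were no longer called in MPP, nor was Bcl2l11 (0.0567) between the controls. In the interaction it left 0 members and 24 of all genes against 50. Pmaip1 in LT-HSC turned to -1.18 with the block.

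Signs turned only in log2 fold changes that were not called. With 1 library left out, values in LT-HSC ranged from -2.53 (without mutant 2) to 0.69 for Pmaip1, -0.53 (without mutant 2) to 0.53 for Cdkn1a, -0.45 (without mutant 2) to 0.44 for Bcl2l11, -0.055 to 0.12 for Mdm2 and -0.11 to 0.05 for Bax. Pmaip1 was -0.012 there with vav-cre controls only. In MPP the ranges were -0.021 to 0.11 for Mdm2, -0.22 to 0.065 for Cdkn1a and -0.10 to 0.013 for Trp53. Mdm2 was -0.0044 there with upper-quartile scaling and -0.064 with vav-cre controls only, and Cdkn1a 0.011 with the latter.

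Over all genes, DESeq2 called 260 in LT-HSC (edgeR 54) and 339 in the interaction, and the joint fit 250 in LT-HSC and 2792 in MPP (4337 within MPP). With 1 library left out, 13 to 102 genes were called in LT-HSC (102 without mutant 2), 2774 to 4756 in MPP and 1 to 885 in the interaction (885 without LT-HSC mutant 3). With vav-cre controls only, 125 were called in MPP and 0 in the interaction, and without the filter 87 in the interaction. Upper-quartile scaling moved the MPP calls from 2039 higher and 2298 lower to 1627 and 2719, and the members from 4 and 7 to 3 and 7. With 3 libraries a group, genes at a few CPM such as Fas, Perp and Eda2r have wide errors in LT-HSC.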

Other observations

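Among further genes of the BCL2 family and of death receptor signalling, 3 that promote death were lower in MPP mutants, as Pmaip1 was. The genes in this paragraph were picked after their values were seen. Tnfsf10, which encodes the ligand TRAIL, averaged 16.9 ± 2.94 CPM in MPP controls and 8.31 ± 2.58 in MPP mutants (SD, n = 3 each; log2 fold change -1.04, SE 0.225, adjusted p = 0.00432, edgeR). Bok, a relative of BAX, averaged 15.3 ± 4.98 and 7.71 ± 1.98 CPM (-1.0, SE 0.253, adjusted p = 0.0103), and the BH3-only gene Bmf 3.79 ± 0.183 and 1.99 ± 0.721 CPM (-0.93, SE 0.283, adjusted p = 0.0249). Others were higher in MPP mutants: the mitochondrial proteins Cycs (0.39, adjusted p = 0.00658), Diablo (0.36, adjusted p = 0.0215) and Aifm1 (0.43, adjusted p = 0.00845), and the BH3-only gene Bid (0.27, adjusted p = 0.0246). In LT-HSC edgeR called none of these genes.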
